A study of Mus musculus with 12 samples.

Results

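The enzymes of hepatic glucose production and the genes of insulin signalling were followed through the livers of mice on a high-fat diet, with and without a ligand of the pregnane X receptor (PXR). The 9 genes were G6pc, Pck1, Fbp1, Pcx, Ppargc1a, Foxo1, Insr, Irs1 and Irs2. They were chosen by name from the symbol column of 6 pairwise count tables, and all 9 were found among 26031 genes with a count in some library. Pck1, Fbp1 and Pcx had counts in all 12 libraries. G6pc had counts in the 9 libraries of the high-fat-diet groups. Irs1 had counts in 9 libraries, those of the vehicle, uninjected high-fat-diet and chow groups. Ppargc1a, Foxo1, Insr and Irs2 had counts in 6 libraries, those of vehicle and uninjected high-fat-diet livers.

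Gluconeogenesis is the making of new glucose from lactate, glycerol and amino acids, and the liver runs it between meals. Pcx (pyruvate carboxylase), Pck1 (cytosolic phosphoenolpyruvate carboxykinase), Fbp1 (fructose-1,6-bisphosphatase) and G6pc (the catalytic subunit of glucose-6-phosphatase) are the enzymes that bypass the irreversible steps of glycolysis. Glucagon raises transcription of several of these enzymes through cAMP, with PGC-1α (Ppargc1a) as a coactivator. Insulin acts through its receptor (Insr) and the adaptors Irs1 and Irs2, and keeps the transcription factor FOXO1 (Foxo1) out of the nucleus.

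The libraries came from liver pieces of C57BL/6N mice, with 3 samples in each of 4 groups. HFD PCN mice ate a high-fat diet and received pregnenolone 16α-carbonitrile (PCN), a synthetic steroid that activates rodent PXR, at 50 mg/kg. HFD Vehicle mice ate the same diet and received 30% DMSO in corn oil. HFD mice ate that diet without injection, and Chow mice ate regular chow without injection. PCN livers thus differed from HFD livers in both PCN and injection, and from Chow livers in diet as well. These cannot be told apart in those comparisons. The diets started at 6 weeks of age and ran for 15 weeks, and the injections were intraperitoneal, daily, for 4 days. The labels give neither the solvent of the PCN injections nor the feeding state or hour at which livers were taken, and they do not say that each sample was a separate animal, so p-values measure the spread between these samples.

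Values are read counts divided by size factors on 1 scale for the 12 libraries, called normalized counts below, and a fold is the ratio of 2 group means. A gene is said to have risen or fallen where the adjusted p in the authors' deposited DESeq2 table was under 0.05. For vehicle against uninjected livers, the comparison with counts for every gene, edgeR's quasi-likelihood test decided. The 5 other tables hold only genes past that threshold, so a gene they do not list had no deposited call, and its ratio was computed where its counts stood in another table. edgeR's adjusted p is given beside each deposited call on the 9 genes. An exact permutation test of 3 against 3 samples cannot go below 0.10. Complete libraries held 7466378 (HFD replicate 38) to 38161486 counts (HFD replicate 4), and the others were estimated at 11700000 to 36100000 counts, with an error of up to 19.0% where both were known. Cyp3a11, a direct PXR target, had 903837, 353941 and 747068 normalized counts in PCN replicates 5, 11 and 27, against 5787, 21636 and 3844 in vehicle replicates 15, 23 and 55. Every PCN library was thus above every vehicle library, in the direction that its label implies. PCN replicate 11 was the lowest of the treated livers for Cyp3a11.

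Promoter sequences are shown for 2 enzymes, a classical insulin-repressed gene (Igfbp1, an insulin-like growth factor binding protein) and both adaptors, because the textbook insulin and cAMP response elements lie upstream of such genes. The windows run 250 bases before to 50 after the RefSeq transcription start (GRCm38.p6), 5′ to 3′ on the gene's strand. Capitals mark the letters TGTTTTG or their complement CAAAACA, the core of the insulin response element that FOXO1 binds, and TGACGT or its complement ACGTCA, a part of the cAMP response element. The windows are chr11:101367466-101367765 (plus strand) for G6pc, chr2:173152823-173153122 (plus) for Pck1 and chr11:7197537-7197836 (plus) for Igfbp1. Those of the adaptors are chr1:82291390-82291689 (minus) for Irs1 and chr8:11008880-11009179 (minus) for Irs2.
G6pc: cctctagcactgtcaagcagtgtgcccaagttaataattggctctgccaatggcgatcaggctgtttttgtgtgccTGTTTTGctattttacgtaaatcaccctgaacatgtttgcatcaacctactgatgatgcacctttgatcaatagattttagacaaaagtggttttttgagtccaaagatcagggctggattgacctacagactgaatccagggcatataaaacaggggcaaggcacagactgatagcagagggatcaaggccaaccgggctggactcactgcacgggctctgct
Pck1: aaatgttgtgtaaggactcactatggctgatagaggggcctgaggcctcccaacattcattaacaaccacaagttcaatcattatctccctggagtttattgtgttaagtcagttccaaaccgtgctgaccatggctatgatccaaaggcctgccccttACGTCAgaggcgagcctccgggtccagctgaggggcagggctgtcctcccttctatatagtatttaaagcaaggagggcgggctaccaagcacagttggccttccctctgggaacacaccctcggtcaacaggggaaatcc
Igfbp1: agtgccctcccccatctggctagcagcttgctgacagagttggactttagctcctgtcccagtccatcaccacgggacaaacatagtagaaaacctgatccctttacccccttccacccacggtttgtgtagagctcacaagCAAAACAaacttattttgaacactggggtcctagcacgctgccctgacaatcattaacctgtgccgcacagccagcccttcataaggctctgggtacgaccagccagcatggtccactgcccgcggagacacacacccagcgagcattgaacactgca
Irs1: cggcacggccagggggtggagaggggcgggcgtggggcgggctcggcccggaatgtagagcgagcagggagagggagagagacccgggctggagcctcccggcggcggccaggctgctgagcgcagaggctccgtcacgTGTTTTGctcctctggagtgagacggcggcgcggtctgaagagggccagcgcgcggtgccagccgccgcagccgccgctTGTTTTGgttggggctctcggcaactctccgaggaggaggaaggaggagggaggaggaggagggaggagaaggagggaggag
Irs2: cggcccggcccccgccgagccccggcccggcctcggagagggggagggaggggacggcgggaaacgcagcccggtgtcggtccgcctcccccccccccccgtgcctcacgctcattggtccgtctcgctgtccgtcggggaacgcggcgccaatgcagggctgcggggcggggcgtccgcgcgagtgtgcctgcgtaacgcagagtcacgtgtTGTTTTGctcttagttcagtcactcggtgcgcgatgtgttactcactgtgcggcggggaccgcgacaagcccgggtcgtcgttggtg

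The insulin-element core began 174 bases before the start of G6pc and 108 bases before that of Igfbp1. Irs1 held it at 111 and 32 bases before the start, and Irs2 at 37 bases. The cAMP-element letters began 91 bases before the start of Pck1 and 50 bases before that of Ppargc1a. Neither motif was in the windows of Fbp1, Pcx (2 windows) or Foxo1, and Insr had no entry among the 8 of 9 genes matched. Both strands were searched, and no match of one motif overlapped the other. Of all 32851 promoter windows, 6.28% held the insulin-element core and 7.51% the cAMP-element letters. A match describes letters only.

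In uninjected high-fat-diet livers the enzymes were more abundant per kilobase of exon than the signalling genes. There Pck1 averaged 12690 ± 3694 normalized counts per kb (SD, n = 3, here and below) and Fbp1 11030 ± 1462, and the ranges of the pair overlapped. Pcx followed at 4718 ± 370.1 per kb and G6pc at 1531 ± 664.5 per kb, each without overlap with its neighbours. Insr stood at 354.3 ± 37.6 per kb and Foxo1 at 134.7 ± 32.3 per kb, again apart from each other. The lowest levels were those of Irs1 (61.1 ± 11.99 per kb), Irs2 (51.0 ± 11.2 per kb) and Ppargc1a (38.1 ± 3.21 per kb), of which neighbours overlapped. In vehicle livers G6pc averaged 1468 ± 1162 per kb and ran from 162.3 per kb in its lowest library to 2388 per kb in its highest. Insr had 370.1 to 427.9 per kb over the vehicle livers. In PCN livers the order of the enzymes was Fbp1 (6673 ± 2006 per kb), Pck1 (5720 ± 2929 per kb), Pcx (2683 ± 169.8 per kb) and G6pc (161.6 ± 105.7 per kb). There the range of Pck1 overlapped those of Fbp1 and Pcx.

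G6pc, which releases free glucose from glucose 6-phosphate as the final step of glucose output, had the largest fold difference between PCN and HFD livers among the 4 genes with PCN counts. PCN replicates 5, 11 and 27 had 383.7, 648.5 and 138.4 normalized counts of G6pc, against 4755.5, 4483.1 and 1851.1 in HFD replicates 4, 30 and 38. Vehicle replicates 15, 23 and 55 had 5763.8, 4474.3 and 391.8 counts. The PCN livers lay below every uninjected high-fat-diet liver, while vehicle replicate 55 lay inside the PCN range and the other vehicle libraries far above it. G6pc fell in PCN against HFD livers, which differed in injection as well, from 3697 ± 1604 to 390.2 ± 255.1 counts (9.47-fold lower). The authors' deposited table gave an adjusted p of 0.001117, and edgeR a log2 change of -3.26 (SE 0.57) with an adjusted p of 0.0588. Without PCN replicate 11 edgeR's adjusted p was 0.0456, and over all 6 leave-one-out fits it ran between 0.0456 and 0.246 while the ratio ran between 7.16-fold and 14.2-fold lower. Against vehicle livers (3543 ± 2804 counts) the mean was 9.08-fold lower, but G6pc was not in the deposited list and edgeR gave an adjusted p of 0.333 (unadjusted p 0.0074, log2 change -3.20, SE 0.91). Without vehicle replicate 55 the ratio was 13.1-fold lower, with an unadjusted edgeR p of 0.000208 and an adjusted p of 0.131.

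Pck1 makes phosphoenolpyruvate from oxaloacetate. It had 20520.4, 29172 and 9145 normalized counts in PCN replicates 5, 11 and 27, against 68135, 47972 and 26445 in vehicle replicates 15, 23 and 55. HFD replicates 4, 30 and 38 had 45032, 55369 and 30170.5 counts, and Chow replicates 8, 17 and 19 had 96488, 47004 and 69367. PCN livers lay below all HFD and all Chow livers and overlapped with vehicle livers through vehicle replicate 55. Pck1 fell in PCN livers to 19612 ± 10040 counts, 2.22-fold below the 43524 ± 12670 of HFD livers (deposited adjusted p 0.04582, edgeR adjusted p 0.569, log2 change -1.15, SE 0.42). It also fell against Chow livers (70953 ± 24780), by a ratio of 3.62-fold (deposited adjusted p 0.006968, edgeR adjusted p 0.0675, log2 change -1.86, SE 0.44). Against vehicle livers (47517 ± 20850) the mean was 2.42-fold lower, not listed by the authors (edgeR adjusted p 0.693). Its level was highest in Chow, followed by vehicle and HFD livers, and these 3 groups overlapped.

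Fbp1 removes a phosphate from fructose 1,6-bisphosphate. PCN replicates 5, 11 and 27 had 12693, 13903 and 7477 normalized counts, vehicle replicates 15, 23 and 55 had 17286, 13355 and 15171, HFD replicates 4, 30 and 38 had 21274, 18758 and 16298, and Chow replicates 8, 17 and 19 had 20107, 18812 and 21736. PCN livers were below all HFD and Chow livers, and PCN replicate 11 was above vehicle replicate 23. Fbp1 fell in PCN livers against Chow, at 11357 ± 3415 against 20218 ± 1465 counts, 1.78-fold lower (deposited adjusted p 0.001863, edgeR adjusted p 0.142). It was 1.65-fold lower than in HFD livers without a deposited call (edgeR adjusted p 0.524), and 1.35-fold lower than in vehicle livers (edgeR adjusted p 1.0).

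Pcx, the mitochondrial enzyme that turns pyruvate into oxaloacetate, had the smallest relative spread of the enzymes in PCN livers. It had 13173, 13263 and 11822 normalized counts in PCN replicates 5, 11 and 27, and 17999, 17852 and 21670 in vehicle replicates 15, 23 and 55. HFD replicates 4, 30 and 38 had 24096, 22583 and 20589 counts, and Chow replicates 8, 17 and 19 had 19134, 18180 and 16096. Every PCN liver was thus below every liver of the other groups. Pcx fell in PCN against vehicle livers, at 12753 ± 807.3 against 19174 ± 2163 counts, 1.503-fold lower (deposited adjusted p 0.0163, edgeR adjusted p 0.361, log2 change -0.59, SE 0.17). It fell 1.76-fold against HFD livers (22422 ± 1759; deposited adjusted p 4.34e-07, edgeR adjusted p 0.0909). It fell 1.40-fold against Chow livers (17803 ± 1554; deposited adjusted p 0.005452, edgeR adjusted p 0.252). Leaving out any library kept the ratio between 1.41-fold and 1.56-fold lower against vehicle livers.

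**Figure D1:**
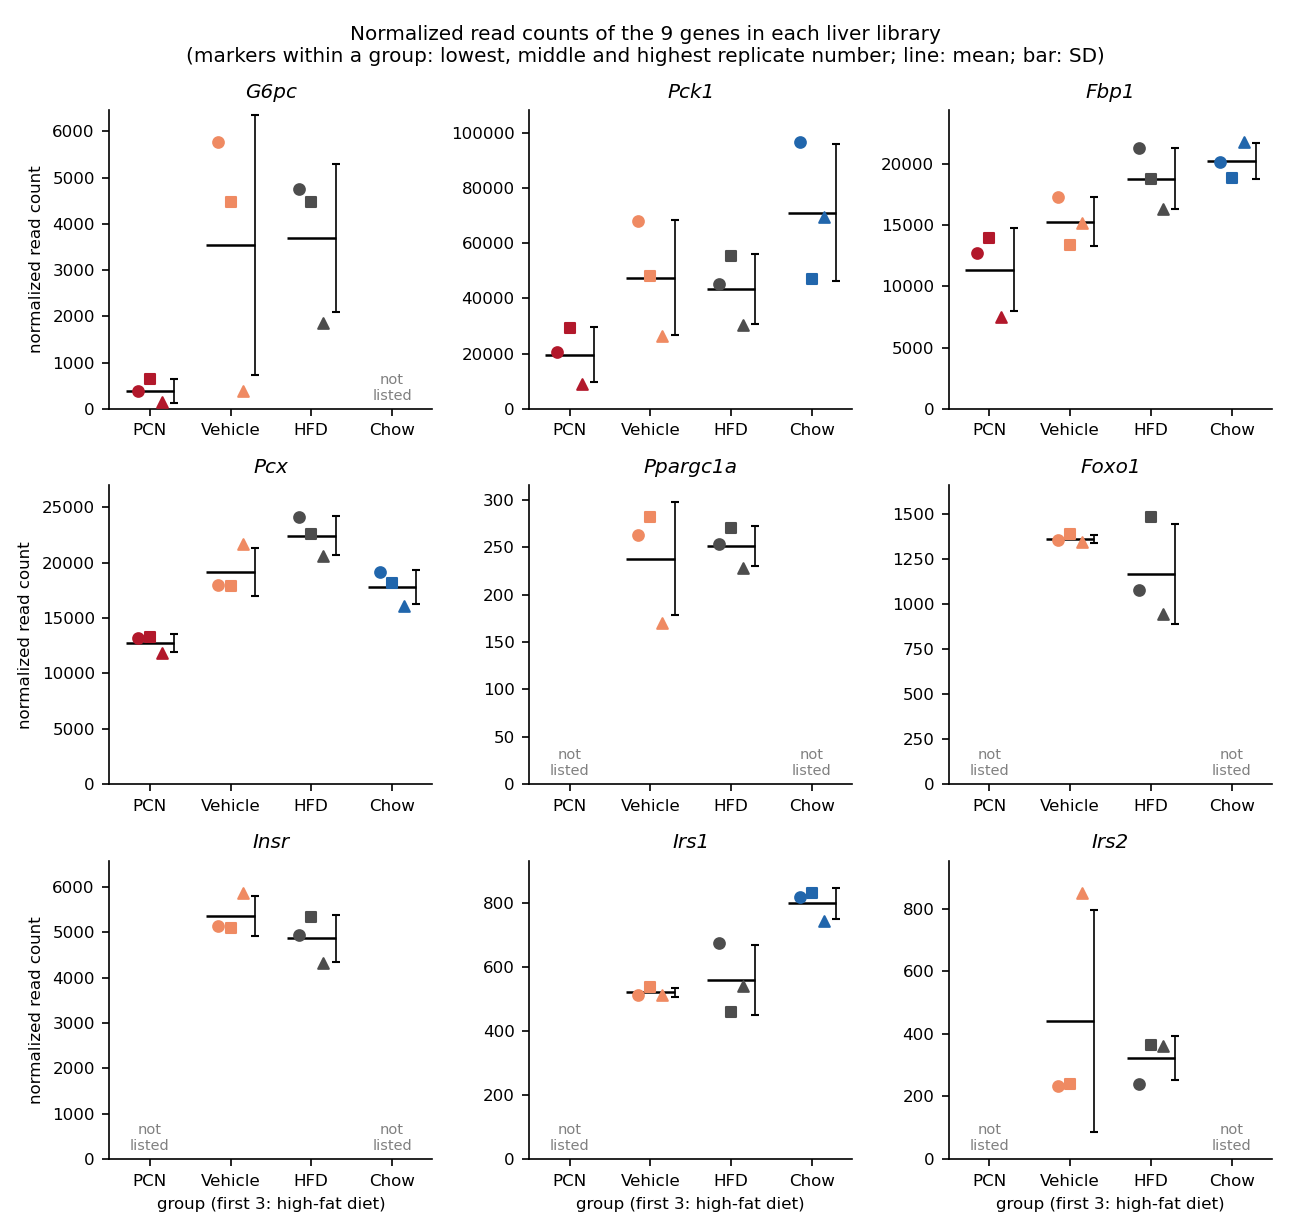
Normalized read counts (vertical axes, from 0) of the 9 genes in each library, by group from left to right HFD PCN, HFD Vehicle, HFD and Chow; each marker is 1 library, the line is the group mean and the bar the SD of 3 libraries. G6pc lies between 138.4 and 648.5 in PCN livers, with vehicle replicate 55 at 391.8, and Pcx in PCN livers lies below every other liver.

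In all, 1 of the 9 genes fell in PCN against vehicle livers (Pcx), where 0.641% of all tested genes fell. Against uninjected high-fat-diet livers 3 of 9 fell (G6pc, Pck1, Pcx), where 1.26% of all tested genes fell, and against Chow 3 of 9 fell (Pck1, Fbp1, Pcx), where 3.67% did. In the same comparisons 0 of the 9 rose, where 1.07%, 1.9% and 4.43% of all tested genes did. The tested genes include many of very low count, which can hardly pass, and the 9 genes all passed the count filter of the complete comparison. edgeR could test only genes with counts in both groups, among the 9 G6pc (not against Chow), Pck1, Fbp1 and Pcx. It called 0 of these in each of the 3 comparisons. Its calls made up 0.0773%, 0.553% and 3.07% of all genes that the authors tested, most of which edgeR could not test. The 3 comparisons share the PCN libraries, so their values are set side by side and are not independent. Those with HFD and Chow livers cannot tell PCN apart from injection, nor, against Chow, from diet. The share of all genes that separate without overlap could not be counted in the 3 comparisons, which lack counts of most genes. Ppargc1a, Foxo1, Insr, Irs1 and Irs2 were in none of the authors' lists of PCN comparisons, so their counts in PCN livers were not at hand.

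Within the PCN group the 4 enzymes kept 1 order of libraries, with replicate 11 highest, replicate 5 in the middle and replicate 27 lowest. For Pcx replicates 11 and 5 were nearly equal (13263 and 13173 normalized counts). Replicate 27 had 138.4 normalized counts of G6pc and 9145 of Pck1, against 648.5 and 29172 in replicate 11. Alb, the albumin gene and the first hepatocyte marker of the list described below, had 727406, 920117 and 442052 counts in PCN replicates 5, 11 and 27 and followed the same order. Igfbp1, whose counts are given below, ran in the opposite order.

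**Figure D2:**
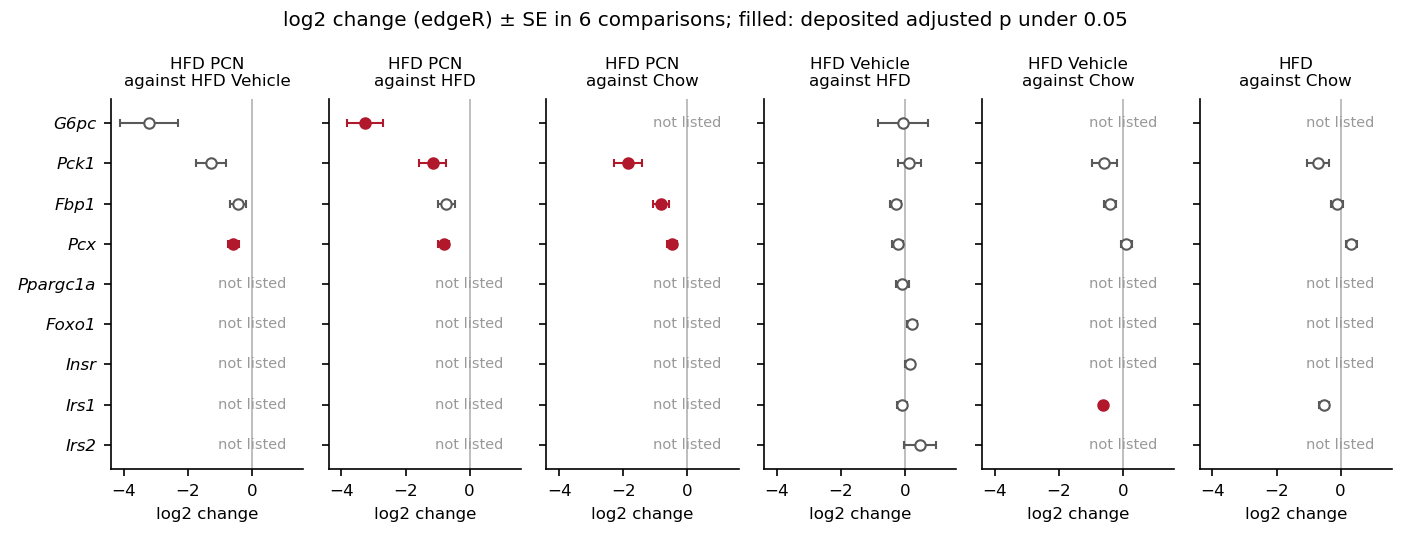
edgeR log2 change (horizontal axes) with SE for each of the 9 genes (rows) in the 6 comparisons (panels), the first-named group over the second; filled red points had a deposited adjusted p under 0.05, and "not listed" marks genes whose counts are not at hand. All filled points lie below 0, and G6pc lies at -3.26 in PCN against HFD livers and at -0.07 in vehicle against HFD livers.

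Ppargc1a encodes a coactivator that is induced in liver by fasting. It had 262.7, 281.6 and 170.0 normalized counts in vehicle replicates 15, 23 and 55, against 253.6, 270.6 and 228.6 in HFD replicates 4, 30 and 38. The groups overlapped, and vehicle replicate 55 was the lowest of the 6. The ratio was 0.949 (edgeR log2 change -0.09, SE 0.19, adjusted p 0.873). Foxo1, the insulin-restrained transcription factor, had 1356.9, 1388.0 and 1342.3 counts in vehicle livers, against 1077.0, 1481.1 and 943.3 in HFD livers. The vehicle libraries lay close together inside the wider HFD range, and the ratio of 1.17 did not pass the test (log2 change 0.22, SE 0.16, adjusted p 0.589).

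Insr, the receptor itself, had 5143, 5088 and 5881 normalized counts in vehicle replicates 15, 23 and 55, against 4936, 5351 and 4324 in HFD replicates 4, 30 and 38. The groups overlapped, with a ratio of 1.10 (edgeR log2 change 0.14, SE 0.14, adjusted p 0.690). Irs2, an adaptor of the receptor, had 233.4, 240.9 and 851.8 counts in vehicle livers, against 240.7, 365.2 and 361.8 in HFD livers. Vehicle replicate 55 stood above all other libraries and the other vehicle libraries at the bottom of the HFD range or under it. The mean was 1.37-fold higher in vehicle livers (442.0 ± 354.9 against 322.6 ± 70.9; log2 change 0.47, SE 0.50, adjusted p 0.708), and without vehicle replicate 55 it was 1.36-fold lower. The same library thus had the lowest G6pc and the highest Irs2 of the 6.

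Irs1, the other main adaptor, was the gene of the signalling group with a deposited call. It had 513.1, 537.4 and 510.9 normalized counts in vehicle replicates 15, 23 and 55, 675.5, 458.1 and 541.6 in HFD replicates 4, 30 and 38, and 818.2, 832.1 and 743.9 in Chow replicates 8, 17 and 19. Every high-fat-diet liver with a count was below every Chow liver. Irs1 fell in vehicle against Chow livers, at 520.4 ± 14.7 against 798.1 ± 47.4 counts, 1.53-fold lower (deposited adjusted p 0.001463; edgeR log2 change -0.62, SE 0.11, adjusted p 0.0774). In uninjected HFD livers (558.4 ± 109.7) it was 1.43-fold lower than in Chow without a deposited call (edgeR log2 change -0.51, SE 0.16, unadjusted p 0.012, adjusted p 0.266). Vehicle livers differed from Chow livers in both diet and injection, which cannot be told apart in that comparison. The difference between the 2 comparisons with Chow is that of vehicle against HFD livers, where the ratio was 0.932 and edgeR's adjusted p 0.785. Exons of Foxo1, Irs1 and Irs2 each overlap 1 gene on the opposite strand (Gm20402, Gm9747 and 9530052E02Rik). The counting strand is not given in the sources used here, so reads of such pairs may not be told apart.

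Vehicle injection was set against no injection on the same diet with counts for every gene. All 9 genes passed the count filter and 0 of 9 were called by edgeR, where 0.00726% of 13775 genes were. At an unadjusted p under 0.05 the count was again 0 of 9, against 1725 of all genes, and DESeq2 and the authors' deposited table called 0 of 9 as well (2.08% and 0.792% of all genes). The median log2 change of the 9 was -0.07, with 4 above and 5 below 0, and that of all genes kept was 0.02. In 0 of 9 genes did the 2 groups separate without overlap, where they did in 19.6% of all genes kept. Fbp1 (ratio 0.813, adjusted p 0.504) and Pcx (0.855, adjusted p 0.584) had the lowest adjusted p of the 9.

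The diet comparison of uninjected livers had 0 of 9 deposited calls, where 4.85% of all tested genes were called, and edgeR called 0 of the 4 genes with counts in both groups (0.471% of all). Pck1 was 1.63-fold lower in HFD than in Chow livers with overlap (edgeR unadjusted p 0.0654, adjusted p 0.910) and Fbp1 1.08-fold lower (adjusted p 1.0). Pcx was 1.26-fold higher in HFD livers without overlap (unadjusted p 0.0912, adjusted p 1.0), and Irs1 is given above. In vehicle against Chow livers 1 of 9 genes fell (Irs1) and 0 rose, where 1.38% of all tested genes fell and 1.72% rose. edgeR called 0 of the 4 genes with counts in both groups there, and its calls made up 0.392% of all genes that the authors tested. In that comparison Fbp1 was 1.32-fold lower without overlap (edgeR adjusted p 0.891), Pck1 1.49-fold lower and Pcx 1.08-fold higher, both with overlap. The share of all genes separating without overlap could be counted only in vehicle against HFD livers (19.6%). The comparisons with Chow lack counts of most genes, so separation of a gene there has no such share beside it.

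The other genes of the pathway were taken from 6 lists that hold 130 further genes. In PCN against vehicle livers 3 of the 130 rose and 9 fell, while edgeR called 0 of the genes of the 6 lists that had counts in both groups. In PCN against HFD livers 2 rose and 12 fell, and in PCN against Chow livers 9 rose and 28 fell. In vehicle against HFD livers edgeR called 0 of them, and the deposited table listed 1 as higher and 5 as lower, where 0.281% of all tested genes were higher and 0.511% lower. In vehicle against Chow livers 5 rose and 7 fell. In HFD against Chow livers 15 rose and 12 fell, where 2.81% of all tested genes rose and 2.05% fell. The shares of all tested genes in the other comparisons are those given above for the 9 genes. A deposited call on a named gene of these lists that is given below without an edgeR value missed 0.05 with edgeR.

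Among 32 gluconeogenic enzymes and shuttles, the 4 enzymes above included, 7 fell and 0 rose in PCN against HFD livers. Ldha (lactate dehydrogenase A) had 7807, 6854 and 6224 normalized counts in PCN replicates 5, 11 and 27, against 14305, 12887 and 20089 in vehicle replicates 15, 23 and 55 and 16162, 16125 and 14012 in HFD replicates 4, 30 and 38. The PCN livers lay below all others, and Ldha fell 2.26-fold against vehicle (deposited adjusted p 1.74e-05, edgeR adjusted p 0.153) and 2.22-fold against HFD livers (edgeR adjusted p 0.0362). Gpd1, the cytosolic glycerol-3-phosphate dehydrogenase, fell 1.601-fold against vehicle livers (3543 ± 519.4 against 5671 ± 403.0 counts, deposited adjusted p 0.009498) and 2.69-fold against HFD livers (edgeR adjusted p 0.0345). It was already lower in vehicle than in HFD livers (log2 ratio of means -0.747, deposited adjusted p 0.01432, not called by edgeR). Gk, glycerol kinase, fell 1.46-fold against vehicle livers (deposited adjusted p 0.0283). Of the same list 3 genes rose against vehicle livers, namely Slc16a1, a lactate and pyruvate carrier (1.56-fold), Aqp9, a glycerol channel (1.54-fold), and Gpi1, glucose-6-phosphate isomerase (1.51-fold). Slc16a1 averaged 1143 ± 134.3 normalized counts in PCN, 732.7 ± 69.0 in vehicle, 1204 ± 68.8 in HFD and 2078 ± 143.1 in Chow livers, so that its vehicle level was the lowest. It fell 1.82-fold in PCN against Chow livers (edgeR adjusted p 0.019), and the deposited table had it 1.64-fold lower in vehicle than in HFD livers (edgeR adjusted p 0.147). Got1, the cytosolic aspartate aminotransferase, fell 2.71-fold in PCN against Chow livers (deposited adjusted p 7.56e-07, edgeR adjusted p 0.0417).

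Of 20 glycolysis and glycogen genes, 1 rose and 4 fell in PCN against HFD livers. Ppp1r3c, a subunit that directs protein phosphatase 1 to glycogen, had 585.1, 833.8 and 236.1 normalized counts in PCN replicates 5, 11 and 27, against 672.7 in vehicle replicate 55 and 3247.6 and 4415.8 in vehicle replicates 15 and 23. HFD replicates 4, 30 and 38 had 3818.5, 3453.6 and 2255.1 counts. As with G6pc, vehicle replicate 55 was inside the PCN range. Ppp1r3c fell 5.76-fold in PCN against HFD livers (deposited adjusted p 3.5e-09, edgeR adjusted p 0.0512). Ppp1r3b, another glycogen-targeting subunit, fell 1.73-fold against vehicle livers (deposited adjusted p 0.02182). Pklr, the liver pyruvate kinase, fell 2.09-fold in PCN against HFD livers, and was 2.89-fold lower in vehicle than in HFD livers (1421 ± 31.1 against 4107 ± 1110 counts; deposited adjusted p 1.39e-08, edgeR adjusted p 0.121).

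**Figure D3:**
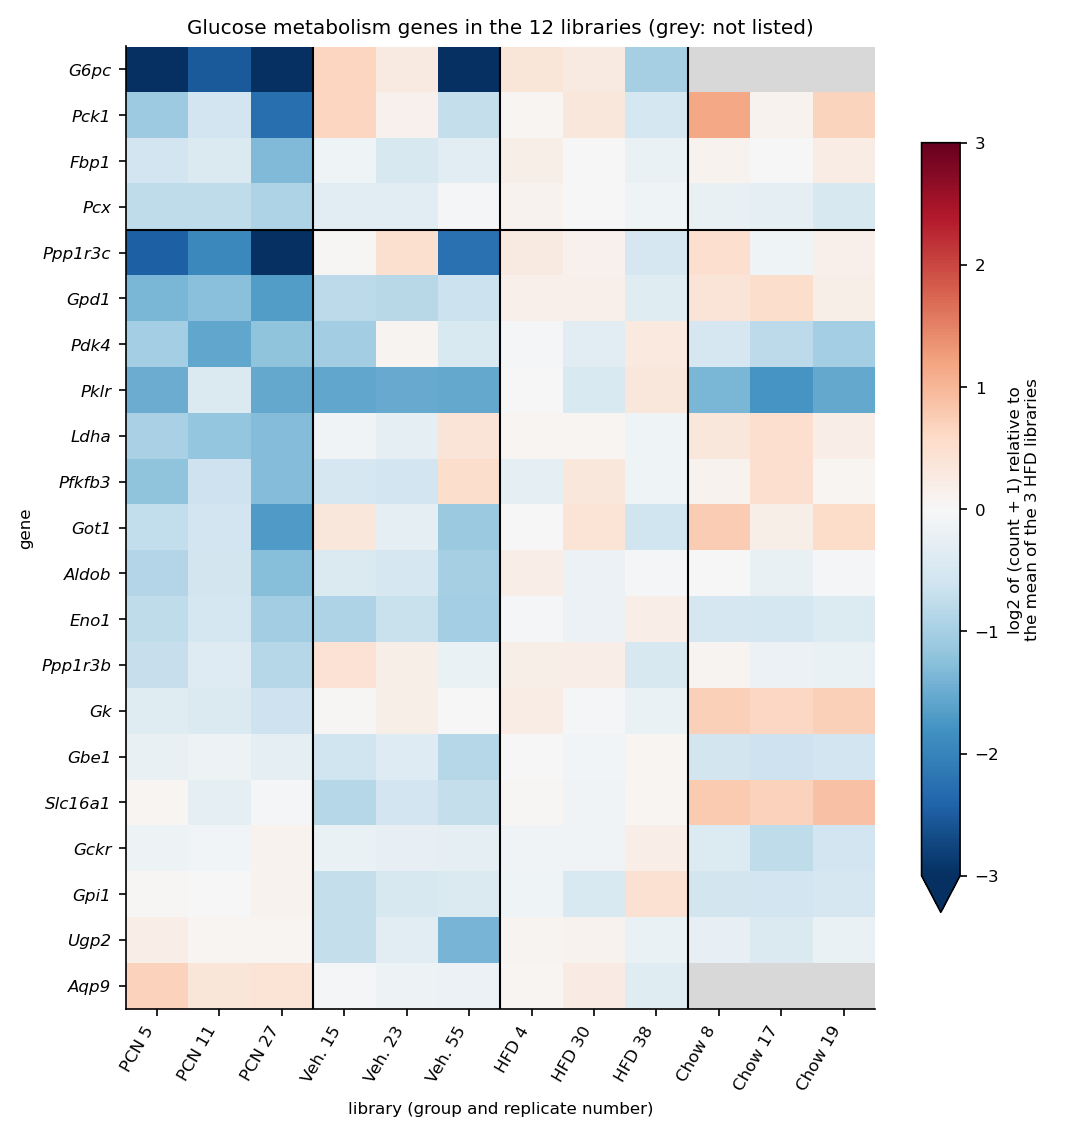
Colour shows log2 of (normalized count + 1) relative to the mean of the 3 HFD libraries for genes of glucose metabolism (rows) in the 12 libraries (columns, in the order HFD PCN, HFD Vehicle, HFD and Chow). The upper 4 rows are the enzymes of the 9 genes, the others were among the genes that the authors called in a PCN comparison, values below -3 take the darkest blue, and vehicle replicate 55 is dark blue, like the PCN livers, for G6pc and Ppp1r3c.

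Of 24 genes of the insulin receptor cascade, 0 were called in PCN against vehicle livers, 1 fell in PCN against HFD livers (Mtor, the growth kinase, 1.35-fold lower, deposited adjusted p 0.02967), and 2 fell against Chow (Sos1, 1.74-fold, and Pdpk1, 1.35-fold). In HFD against Chow livers Mtor rose 1.38-fold and Pik3cb, a catalytic subunit of phosphoinositide 3-kinase, rose 1.62-fold, and in vehicle against Chow livers Irs1 was the 1 gene called. The called share of the 24 was thus 4.17% in PCN against HFD livers, where 1.9% of all tested genes rose and 1.26% fell, and 8.33% in PCN against Chow livers, where 4.43% rose and 3.67% fell. It was also 8.33% in HFD against Chow livers, where 4.85% of all were called, so that these counts of 1 or 2 genes are no result about the list. Of 18 brakes of insulin signalling, 0 were called in PCN against vehicle livers, and 5 fell in PCN against Chow. Among them was Phlpp1, an Akt phosphatase (1.49-fold lower, edgeR adjusted p 0.0477). In HFD against Chow livers 1 brake rose and 4 fell, among them Grb14, an adaptor that inhibits the receptor kinase (1.58-fold lower), and Trib3, an Akt-binding pseudokinase (1.88-fold lower). The called share of the 18 was 27.8% in PCN against Chow and in HFD against Chow livers, beside the shares of all tested genes just given. edgeR called 1 brake (Phlpp1) in PCN against Chow and 0 in HFD against Chow livers.

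Of 31 genes of glucagon and cAMP signalling and of gluconeogenic transcription factors, 3 fell and 0 rose in PCN against vehicle livers. They were Cebpb, a factor that binds the Pck1 promoter (1.67-fold lower), Klf9 (1.57-fold lower) and Nr0b2, the bile acid-induced repressor SHP (2.47-fold lower, deposited adjusted p 0.04822, edgeR adjusted p 0.439). Klf15, a factor of amino acid use and gluconeogenesis, fell 1.97-fold in PCN against Chow (1939 ± 244.8 against 3825 ± 389.2 counts, edgeR adjusted p 0.018) and 1.46-fold in HFD against Chow livers (deposited adjusted p 0.01204). Nr1i3, the constitutive androstane receptor, rose 1.64-fold in PCN against HFD livers and was 1.55-fold higher in vehicle than in HFD livers (deposited adjusted p 0.03709, edgeR adjusted p 0.233).

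Of 23 insulin- or FOXO1-responsive targets, 2 fell and 0 rose in PCN against vehicle livers. Igfbp1, whose promoter is printed above, had 743.9, 473.3 and 807.3 normalized counts in PCN replicates 5, 11 and 27, against 2730.7, 1642.8 and 1403.4 in vehicle replicates 15, 23 and 55. The groups did not overlap, and Igfbp1 fell 2.85-fold (deposited adjusted p 0.0001465, edgeR adjusted p 0.18). HFD replicates 4, 30 and 38 had 618.4, 1569.1 and 1123.1 counts, overlapping with both. Cdkn1a, a cell cycle inhibitor, fell 4.24-fold against vehicle livers (deposited adjusted p 0.0005652) and 6.75-fold against HFD livers (edgeR adjusted p 0.0133). Srebf1, the insulin-induced lipogenic factor, rose 2.84-fold in HFD against Chow livers (3245 ± 698.0 against 1142 ± 76.9 counts, edgeR adjusted p 0.0227). In the comparison of vehicle with uninjected livers the median log2 change was -0.23 for gluconeogenic enzymes and shuttles, with 27 of 31 kept genes below 0, and 0.20 for glucagon, cAMP and transcription factors, with 22 of 31 above 0. That of all genes kept was 0.02.

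**Figure D4:**
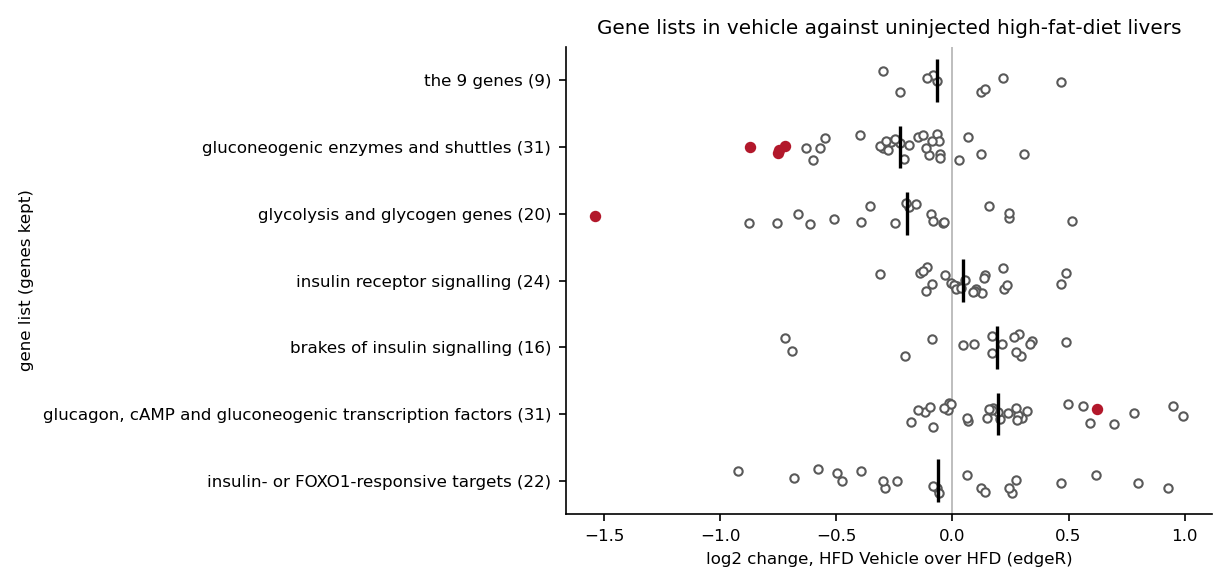
edgeR log2 change of HFD Vehicle over HFD livers (horizontal axis) for the genes kept by the count filter in the 9 genes and 6 pathway lists (rows, number kept in brackets); each point is a gene, red where the deposited adjusted p was under 0.05, and the bar is the median. The medians are -0.07 for the 9 genes, -0.23 for gluconeogenic enzymes and shuttles and 0.05 for insulin receptor signalling.

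Genes whose levels ran most like those of the 9 were found by the root-mean-square difference of centred log2 (count + 1) profiles, over the libraries at hand. Over 12 libraries and 1955 genes, the profile of Pck1 lay nearest to Got1 (0.293, where Pck1 itself varied by 0.884 around its mean), Pptc7 (0.322) and Plin5 (0.34). That of Pcx lay nearest to Apoe (0.143, with its own variation at 0.314) and that of Fbp1 to Apoc1 (0.193, with its own at 0.41). Over the 6 vehicle and HFD libraries and 10558 genes, G6pc lay nearest to Etnppl (0.264, with its own at 1.352), Irs2 to Nfkbiz (0.147, with its own at 0.652) and Irs1 to Igf1r (0.055, with its own at 0.169). The 1955 genes have counts in all 12 libraries because the authors called each in comparisons that include PCN and Chow livers. The nearest genes of Pck1, Pcx and Fbp1 were thus sought among genes already chosen for differences between these groups. The points share libraries and depth, and the numbers are a description.

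Other features of the livers moved with the same groups. The liver label was checked with hepatocyte markers, of which none was at 0. Sums here and below take only genes with counts in all 12 libraries. The authors had called each of these in comparisons that include PCN and Chow livers. Differences of the sums between groups are thus partly set by that choice and do not stand for the whole list. The summed level of 8 hepatocyte markers was 953358 to 1482725 normalized counts in PCN livers, 1335603 to 2147701 in vehicle, 1566671 to 2182506 in HFD and 2259961 to 2536916 in Chow livers. Of 9 such markers, 0 were called in PCN against vehicle livers, 1 rose and 1 fell against HFD and 7 fell against Chow. Of all tested genes 1.07% rose and 0.641% fell against vehicle, 1.9% and 1.26% against HFD, and 4.43% and 3.67% against Chow livers. In bulk tissue fewer cells of a type and less RNA per cell cannot be told apart. The sum of 15 acute phase genes was 295276 to 650266 counts in PCN, 552690 to 1122805 in vehicle, 259785 to 269582 in HFD and 184092 to 184820 in Chow livers. Its highest value was in vehicle replicate 55 and its lowest among PCN livers in replicate 11. Their part in the results on the 9 genes was not tested.

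Feeding and clock genes moved as well. The shares of all tested genes in the PCN comparisons, here and for the cell markers below, are those given for the hepatocyte markers. By the deposited adjusted p 0.511% of all tested genes were lower in vehicle than in HFD livers. In vehicle against Chow livers 1.72% of all rose and 1.38% fell, and in HFD against Chow livers 2.81% rose and 2.05% fell. Of 15 genes raised by fasting, 2 fell in PCN against vehicle, 4 against HFD and 6 against Chow livers, and 0 rose. Their sum over 7 genes was 68207 to 96774 counts in PCN, 95849 to 146099 in vehicle, 123225 to 174350 in HFD and 209005 to 253118 in Chow livers. Of 13 genes raised by feeding, 4 rose in PCN against vehicle livers, and 5 were lower in vehicle than in HFD livers in the deposited table. In PCN livers 1 rose and 1 fell against HFD, and 6 rose and 2 fell against Chow. Their sum over 9 genes was 28831 to 97749 counts in PCN, 25847 to 40503 in vehicle, 189195 to 245034 in HFD and 197115 to 362369 in Chow livers. The sums of PCN and vehicle livers thus lay below those of both uninjected groups. A sum weighs genes by their counts and does not describe each gene. Scd1, a gene of this list, had a log2 ratio of means of -3.375 in PCN against Chow livers, where 6 genes of the list rose. Its log2 ratio was -3.857 in vehicle against HFD livers, and edgeR made neither call. Of 17 circadian clock genes, 1 fell in PCN against vehicle livers and 2 fell against HFD livers, while 4 rose and 5 fell against Chow. Against Chow 5 also rose and 2 fell in vehicle livers, and 5 rose and 3 fell in HFD livers. Of markers of macrophages, stellate cells, endothelium, cholangiocytes, lymphocytes and granulocytes, and of blood and neighbouring tissues, 0 were called in PCN against vehicle livers. In HFD against Chow livers 8 of 15 macrophage and 7 of 15 stellate cell markers rose, where 2.81% of all tested genes rose. In PCN against Chow livers 2 macrophage markers rose and 1 fell, and 6 stellate cell markers rose. In PCN against HFD livers 1 macrophage and 2 stellate cell markers fell. The sum of 3 macrophage markers was 212.2 to 265.8 counts in PCN, 212.7 to 394.6 in vehicle, 308.1 to 410.6 in HFD and 228.6 to 309.5 in Chow livers. That of 6 stellate cell markers was 2095 to 2937 counts in PCN, 1012 to 3908 in vehicle, 3434 to 5624 in HFD and 992.9 to 1171 in Chow livers, where at most 1 of the 6 was at 0 in a library. The sum of 2 endothelial markers was 962.3 to 1469 counts in PCN, 740.9 to 1338 in vehicle, 1667 to 1933 in HFD and 1398 to 1651 in Chow livers. That of 4 cholangiocyte markers was 400.1 to 404.7 counts in PCN, 461.1 to 562.8 in vehicle, 574.7 to 621.5 in HFD and 315.0 to 342.0 in Chow livers. These sums hold only genes with counts in all 12 libraries and carry the limit given above. The part of these features in the results was not tested.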

How the data were processed

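Per the submitters' processing notes, the authors aligned reads with HISAT2 to GRCm38/mm10, counted them with HTSeq and compared groups with DESeq2, with no version stated in the labels. The authors deposited raw read counts per gene in 6 pairwise tables of 6 libraries, with their log2 fold changes, standard errors and adjusted p-values. The deposited log2 fold changes lie nearer 0 than log2 ratios of means (G6pc in PCN against HFD livers -1.52 against -3.24), so folds are given as ratios of means. Counts repeated between tables were identical (15768 compared, 0 differed). Size factors were recovered from the deposited means and brought to 1 scale (largest misfit 0.52%). The vehicle against HFD table (26015 genes) was tested with edgeR 4.0.16 (R 4.3.3; TMM, expression filter, quasi-likelihood, Benjamini-Hochberg), with DESeq2 1.42.0 as an alternative, after a test on simulated data. For the other 5 the deposited adjusted p under 0.05 decides, and edgeR was run on the counts at hand, taking the dispersion prior from the complete table, with adjustment over 25100 to 25879 genes. The members and lists were chosen with earlier results of these data known. Beyond the 9 genes, the text names per list and comparison up to 6 called genes with the largest log2 ratio and a mean of at least 50. It also gives a few genes by name (among them Igfbp1, Srebf1 and Cyp3a11) and up to 3 nearest profiles. Alb was added as the first hepatocyte marker of its list. Some genes of the lists are not reported here. Gene positions matched GENCODE M21 for all 9 genes. Promoter sequences are RefSeq's (GRCm38.p6).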

Additional observations from a re-analysis of the deposited data

How the results depend on the processing

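In vehicle against HFD livers edgeR called 1 gene of all, against 283 without the count filter, 286 with DESeq2 and 206 in the deposited table, and 0 to 9 when a library was left out. Of the 9 genes, 0 were called in that comparison under each of these settings. The deposited calls of the 9 in the other comparisons were lost with edgeR. In PCN against vehicle, PCN against Chow and vehicle against Chow livers it called 0 of those of the 9 that had counts in both groups. This held both on the listed counts and, as chosen after seeing the data, on every gene with counts, and it called 0 to 0 when a library was left out. In PCN against HFD livers it called 0, and 0 to 1 when a library was left out (G6pc, without PCN replicate 11). The cause was not tested.

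Leaving out a library turned the direction of 5 uncalled log2 changes in vehicle against HFD livers. They ran between -0.61 and 0.46 for G6pc, -0.23 and 0.41 for Pck1, -0.22 and 0.10 for Ppargc1a, -0.24 and 0.04 for Irs1, and -0.44 and 0.77 for Irs2. G6pc was above 0 without vehicle replicate 55 (0.46), HFD replicate 4 (0.15) or HFD replicate 30 (0.08). Pck1 was below 0 without vehicle replicate 15 (-0.23) or HFD replicate 38 (-0.07). No paired analysis was possible because the groups share no replicate numbers. Of the 9 genes depth limits Ppargc1a most, at 103 to 511 raw counts per library.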
